A study of Rattus norvegicus with 23 samples.

Results

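The comparison described here sets 8 radiation-induced mammary carcinomas of the rat against 7 normal mammary tissues, across all miRNAs of the array. Its members are the 15 arrays whose tissue label reads radiation-induced mammary carcinoma or normal mammary tissue, of 23 arrays in all; the other 8 arrays hold carcinomas that arose spontaneously. All animals were female Sprague-Dawley rats, and no genotype, age, radiation dose or type of radiation is given in the sources used here. Each carcinoma code names a different animal. Nothing in the labels ties the 7 normal tissues to separate animals, and the spread between them, on which the p-values rest, may in part be technical. Total RNA was labelled with the dye Cy3 and hybridised to Agilent rat miRNA arrays of 1 colour. Carcinomas are numbered 1 to 8 here in the order of their records and normal tissues 1 to 7 as labelled.

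MicroRNAs (miRNAs) are short RNAs cut from hairpin precursors and loaded into Argonaute proteins. They pair with messenger RNAs mostly through their seed, the stretch near the 5′ end, and lower the stability and translation of those messages, so miRNAs that share a seed are expected to share many targets. Tumours differ from their tissue of origin in miRNA content partly through the mixture of cells they contain, since several miRNAs are made mainly in vessels, muscle, blood cells or epithelium.

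The sequences shown next are those of the miRNAs on which the results turn, chosen to show which of them share a seed. They are mature sequences from RefSeq (rat assembly GRCr8), written 5′ to 3′, with bases 2 to 8, the seed, in capitals. Of the 199 miRNAs tested, 150 matched a RefSeq mature sequence, and among the 50 that passed the test 40 did. Where the array name gives no arm, the commonly used arm was taken.
miR-10a-5p: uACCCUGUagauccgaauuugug
miR-10b: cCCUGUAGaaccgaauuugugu
miR-196a: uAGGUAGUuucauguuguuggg
miR-196b: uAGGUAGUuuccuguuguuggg
miR-34b: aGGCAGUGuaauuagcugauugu
miR-34c: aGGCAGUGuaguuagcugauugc
miR-192: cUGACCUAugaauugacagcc
miR-194: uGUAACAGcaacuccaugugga
miR-106b: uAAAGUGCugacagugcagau
miR-93: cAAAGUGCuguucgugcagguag
miR-25: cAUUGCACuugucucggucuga
miR-92a: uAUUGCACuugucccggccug
miR-32: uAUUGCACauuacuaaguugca
miR-19a: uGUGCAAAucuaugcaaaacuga
miR-181c: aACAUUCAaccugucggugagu
miR-181d: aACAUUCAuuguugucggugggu
miR-211: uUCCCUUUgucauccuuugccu
miR-135b: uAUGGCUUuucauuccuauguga
miR-221: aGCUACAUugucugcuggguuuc
miR-126: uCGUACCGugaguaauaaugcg
miR-139-5p: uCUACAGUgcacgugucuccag
miR-133b: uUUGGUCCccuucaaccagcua
miR-327: cCUUGAGGggcaugagggu
The capitals of miR-10a-5p and miR-10b differ because the RefSeq entry of miR-10b begins further along a stretch that both share. Several members of one family differ at few bases, and how much of their signal an array probe shares between them was not tested.

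The level of a miRNA is the log2 of its background-subtracted spot signal after each array was scaled to its 75th percentile. Levels below the floor of 3.30 were set to it, and values at the floor have no order. Carcinoma arrays detected 188 ± 10.6 miRNAs (SD, n = 8, from 169 to 206) and normal arrays 195 ± 14.1 (SD, n = 7, from 180 to 212), which did not pass an exact two-sided permutation test (p = 0.292). The percentile used for scaling was 1161 ± 393 in carcinomas and 1562 ± 560 in normal tissue (SD), also not past the test (exact permutation p = 0.131, adjusted over 3 measures 0.292). Of the 350 miRNAs on the array, 234 were detected on at least 1 carcinoma array and 233 on at least 1 normal array, and 104 on none of the 15. Normal arrays resembled each other closely, with correlations of their levels across tested miRNAs from 0.955 to 0.993. Correlations between carcinomas ran from 0.736 to 0.984, and the low end came from carcinoma 3, whose mean correlation with the others was 0.756 against 0.917 to 0.941 for the other 7.

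Carcinoma 3 lacked most of the epithelial miRNAs that the other 7 carcinomas held. In it all 5 tested miR-200 family members (miR-200a, miR-200b, miR-200c, miR-429 and miR-141) were at the floor of 3.30, as were miR-96, miR-182, miR-183, miR-203, miR-375 and miR-31. MiR-205, also of epithelial lineage, was detected on all 8 carcinoma arrays. It lay at 6.33 in carcinoma 3, where the next lowest carcinoma had 9.92. The lowest level among the other 7 carcinomas was 11.8 for miR-200c. Its miR-199a-3p (13.5), miR-199a-5p (12.4) and miR-214 (12.1), which are abundant in fibroblasts, were the highest of the 8. The miR-200 family was thus present on 7 of the 8 arrays labelled mammary carcinoma, and values without carcinoma 3 are given for several of the miRNAs on which it stood apart.

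The same 5 miRNAs gave the most signal in both tissues, an order of probe signal and not of copies. MiR-21, a miRNA raised in many cancers, took 18.9% ± 4.88 of the summed signal in carcinomas (SD, n = 8) and 14.4% ± 4.92 in normal tissue (SD, n = 7), and let-7c, let-7a, let-7f and let-7b followed in that order in both. The level of miR-21 ran from 14.8 (median 15.04) to 15.9 in carcinomas and from 13.2 (median 14.5) to 15.1 in normal tissue. The groups overlapped, and the difference of 0.71 ± 0.37 (SE) did not pass (limma, adjusted p = 0.163).

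Of the 199 miRNAs tested, 50 passed at an adjusted p under 0.05 in limma, which is 25.1%. Of these, 33 (16.6% of those tested) rose and 17 (8.54%) fell in carcinomas relative to normal tissue. With a difference of at least 1 on the log2 scale, which is a doubling or more, 17 rose and 12 fell. The largest falls were those of miR-327, miR-10b, miR-196b and miR-10a-5p, and the largest rises those of miR-135b, miR-34c and miR-34b. For 18 miRNAs (9.05%) the 2 groups did not overlap at all, 14 higher and 4 lower in carcinomas. The median difference over all tested miRNAs was 0.14, with 121 positive and 78 negative.

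The balance of rises and falls depended on the scaling, as did the number of larger differences that passed. With the percentile taken over all probes 16 rose and 19 fell, and with quantile normalization 14 rose and 21 fell. Without scaling 4 rose and 23 fell, and the median over all tested miRNAs moved to -0.21. All 29 miRNAs that passed with a difference of at least 1 kept their sign under each of these scalings, which their selection by size made likely. Of these 29, 25 still passed with the percentile over all probes, 25 with quantile normalization and 16 without scaling. Differences below are therefore relative to the 75th percentile of the probes that all 23 arrays detected. They are not centred on the typical tested miRNA, since the median difference on this scale was 0.14.

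**Figure D1:**
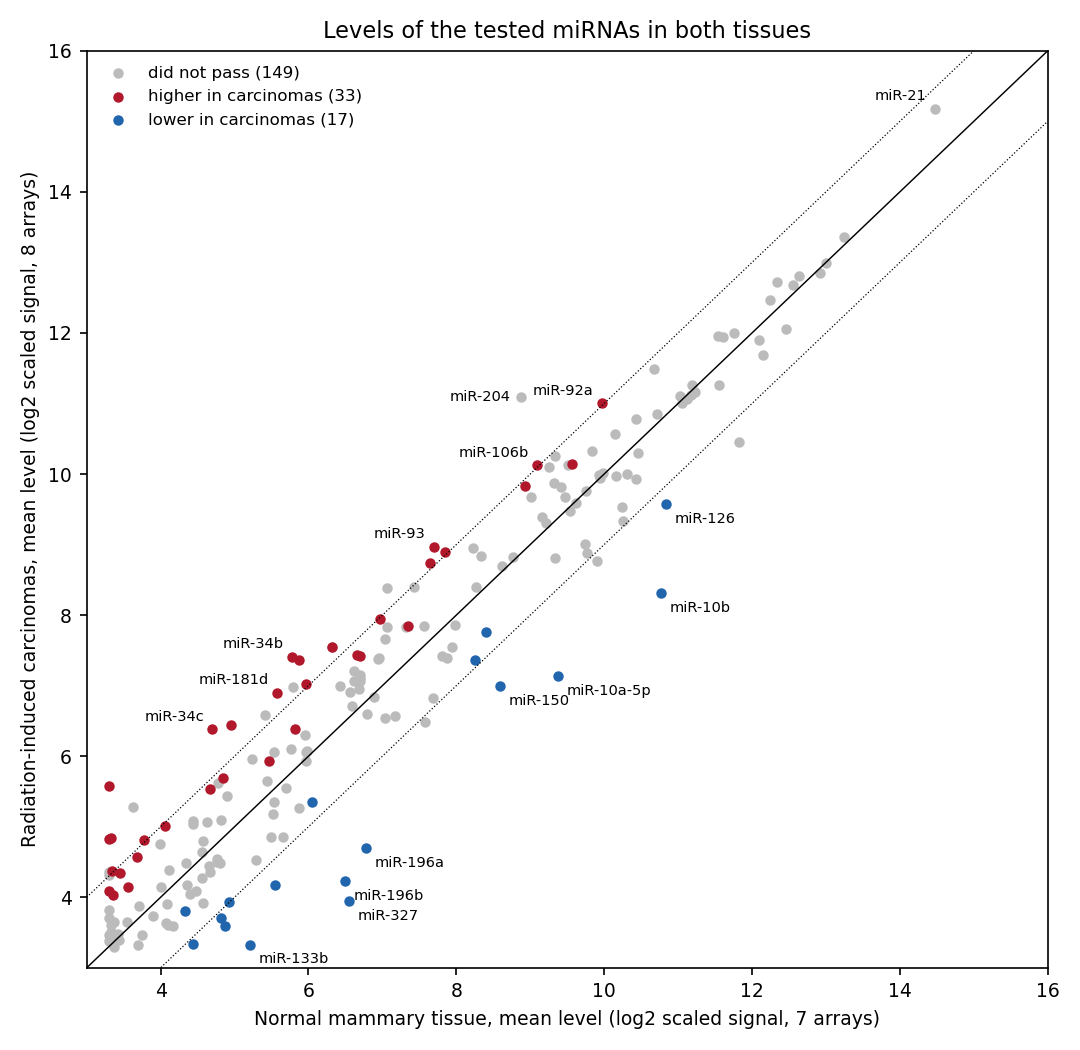
Mean level (log2 scaled signal) of each of the 199 tested miRNAs in 7 normal tissues (horizontal axis) and 8 radiation-induced carcinomas (vertical axis); the solid line marks equal levels and the dotted lines a difference of 1. The 33 miRNAs that rose (red) and the 17 that fell (blue) lie mostly below the brightest levels: among the 50 miRNAs with the highest mean level 3 rose and 2 fell, against 10 and 6 among the 50 with the lowest.

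Among the falls, miRNAs encoded within the Hox gene clusters stood out in size. Of 5 tested members 4 fell and none rose, with a median difference of -2.24 beside 0.14 for all tested miRNAs. Counts of members that passed, here and below, stand beside 8.54% of all tested miRNAs that fell and 16.6% that rose. Hox clusters set positional identity in the embryo, and miR-10 and miR-196 repress Hox messages. The level of miR-10b ran from 7.61 (median 8.07) to 10.02 in carcinomas and from 10.6 (median 10.7) to 11.1 in normal tissue. All 8 carcinomas lay below every normal tissue, with carcinoma 3 the highest of them. The difference was -2.46 ± 0.37 (SE; limma, adjusted p = 1.04e-04), and it was -2.22 on slide 3 and -2.79 on slide 4 alone.

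MiR-10a-5p, its close relative, ran from 6.48 (median 7.13) to 8.37 in carcinomas and from 9.06 (median 9.32) to 9.92 in normal tissue. Again no carcinoma reached the normal range, and the difference was -2.24 ± 0.31 (adjusted p = 4.33e-05). MiR-196b ran from the floor of 3.30 (median 4.35) to 5.22 in carcinomas, where 5 of 8 arrays detected it, and from 6.25 (median 6.49) to 6.77 in normal tissue. Its groups did not overlap either, and it fell by 2.27 ± 0.40 (adjusted p = 2.82e-04).

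MiR-196a divided the carcinomas. It was detected in 3 of 8 and in all 7 normal tissues, and its levels ran from the floor (median 3.30) to 8.37 in carcinomas and from 6.31 (median 6.79) to 7.14 in normal tissue. Carcinoma 3 (8.37) and carcinoma 7 (8.27) lay above every normal tissue, 1 lay at 4.46 and the other 5 at the floor. The fall of 2.08 ± 0.71 passed narrowly (adjusted p = 0.0405), did not pass with slide as a block (-1.80, adjusted p = 0.167), and was lost on leaving out 1 of 12 arrays in turn. MiR-196c differed by -0.77 and did not pass (adjusted p = 0.252). Without carcinoma 3 the same 4 Hox-cluster miRNAs stood as falls, with a list median of -2.42.

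MiRNAs of vessels fell as well. Of 4 tested miRNAs known from endothelium 3 fell (8.54% of all tested did), with a median of -1.27. They are the arms of only 2 miRNAs, miR-126 and miR-139, and so are not independent. MiR-126, which lies in an intron of the endothelial gene Egfl7 and acts in vessel growth, ran from 8.33 (median 9.64) to 11.4 in carcinomas and from 10.4 (median 10.8) to 11.2 in normal tissue. Carcinoma 3 had the highest level of all 15 arrays, and the other 7 carcinomas lay below every normal tissue. The difference was -1.26 ± 0.34 (adjusted p = 0.0101), and -1.52 without carcinoma 3. Its other arm, miR-126*, fell by 1.37 ± 0.33 (adjusted p = 0.00435), and by 1.64 without carcinoma 3.

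MiR-139-5p, encoded within the span of Pde2a, was detected in 4 of 8 carcinomas and all 7 normal tissues. It ran from the floor (median 3.36) to 4.43 in carcinomas and from 4.42 (median 4.59) to 5.52 in normal tissue, so that the groups met only at 4.43 and 4.42. The fall was 1.27 ± 0.20 (adjusted p = 1.32e-04). These levels lie close to the floor: with the floor raised to 4.89 on the log2 scale, a limit set by 1 spontaneous carcinoma array, the difference of miR-139-5p was -0.20 (adjusted p = 0.0853). MiR-139-3p, the other arm, differed by -0.50 and did not pass (adjusted p = 0.64).

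Of 4 tested miRNAs of striated muscle 2 fell, beside 8.54% of all tested, with a median of -0.70. MiR-133b, a miRNA of skeletal and heart muscle, was detected in 2 of 8 carcinomas and all 7 normal tissues. It ran from the floor (median 3.30) to 3.52 in carcinomas and from 3.69 (median 5.29) to 7.38 in normal tissue, with no overlap and the wide spread on the normal side. It fell by 1.88 ± 0.43 (adjusted p = 0.00309), while the within-slide differences were -1.26 and -0.39. MiR-1, which is transcribed with miR-133 genes in muscle, was detected in 1 of 8 carcinomas and 6 of 7 normal tissues. It fell by 1.1 ± 0.36 (adjusted p = 0.032), but not when normal tissue 2 or normal tissue 4 was left out, nor with slide as a block (-0.83, adjusted p = 0.181). With the raised floor neither muscle miRNA passed (miR-133b -0.63, adjusted p = 0.099; miR-1 -0.25, adjusted p = 0.413).

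The summed signals of the endothelial, striated muscle, adipose, erythroid and leukocyte lists had lower medians in carcinomas. For the 4 endothelial miRNAs the log2 of the summed scaled signal ran from 8.56 (median 9.89) to 11.4 in carcinomas and from 10.7 (median 11.0) to 11.3 in normal tissue. For the 7 striated muscle miRNAs it ran from 6.17 (median 6.39) to 6.89 against 6.53 (median 6.96) to 8.60, and in each group 3 of the 7 were detected on no array. For 5 miRNAs known from adipose tissue it ran from 9.02 (median 9.10) to 9.68 against 9.56 (median 9.95) to 10.1. For 2 erythroid miRNAs it ran from 5.20 (median 6.76) to 8.10 against 6.40 (median 7.80) to 9.29. Neither of these passed singly (miR-451 -1.10, miR-144 -0.57). The log2 median sum was 11.7 in carcinomas and 12.2 in normal tissue for 6 leukocyte miRNAs, and 13.3 in both for 5 miRNAs of smooth muscle and fibroblasts. It was higher in carcinomas for the miR-200 family (14.005 against 12.9), for 3 miRNAs of epithelial lineage (10.8 against 9.96) and for 9 neural miRNAs (7.87 against 7.58), of which 5 were detected on no carcinoma array and 7 on no normal array. In bulk tissue, fewer cells of a type and less of the miRNA per cell cannot be told apart. The part of these cell types in the differences of other miRNAs was not tested.

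Of the 5 adipose miRNAs tested, 2 fell, beside 8.54% of all tested, and none rose (median -0.64). They were miR-193 (-0.89 ± 0.25, adjusted p = 0.0134) and miR-365 (-0.64 ± 0.19, adjusted p = 0.0212), a miRNA that in the mouse is encoded beside miR-193b and acts in brown fat differentiation. MiR-378, encoded within the energy metabolism gene Ppargc1b, differed by -0.48 (adjusted p = 0.25). With slide as a block none of the 5 passed, and the list median was -0.53.

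Of 6 leukocyte miRNAs 1 fell, beside 8.54% of all tested, so the list did not stand out by count. Its median was -0.46. MiR-150, a miRNA of mature lymphocytes, ran from 6.03 (median 6.85) to 9.10 in carcinomas and from 8.18 (median 8.68) to 8.87 in normal tissue. Carcinoma 4 exceeded every normal tissue and the other 7 lay below all of them. The fall of 1.59 ± 0.53 (adjusted p = 0.0333) was lost on leaving out any of 8 arrays. MiR-223, a miRNA of neutrophils, differed by -1.14 ± 0.43 and did not pass (adjusted p = 0.0516).

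The largest single difference belonged to miR-327, annotated in rodents and without a role given here. It ran from the floor (median 3.93) to 4.96 in carcinomas and from 4.41 (median 6.49) to 8.11 in normal tissue. The groups overlapped between 1 low normal tissue and the highest carcinomas. It fell by 2.60 ± 0.68 (adjusted p = 0.0082), by 3.43 on slide 3 and by 1.81 on slide 4. MiR-333, also annotated in rodents, fell by 1.11 ± 0.34 (adjusted p = 0.0212), did not pass with slide as a block (-0.94, adjusted p = 0.109), and differed by -0.06 with the raised floor. Both arms of the X-linked miR-532, which lies within the span of Clcn5, fell as well, miR-532-3p by 0.99 ± 0.25 (adjusted p = 0.00757) and miR-532-5p by 0.70 ± 0.25 (adjusted p = 0.0452). MiR-532-5p did not pass with slide as a block (-0.71, adjusted p = 0.119) and kept its call on leaving out only 4 of the 15 arrays in turn.

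**Figure D2:**
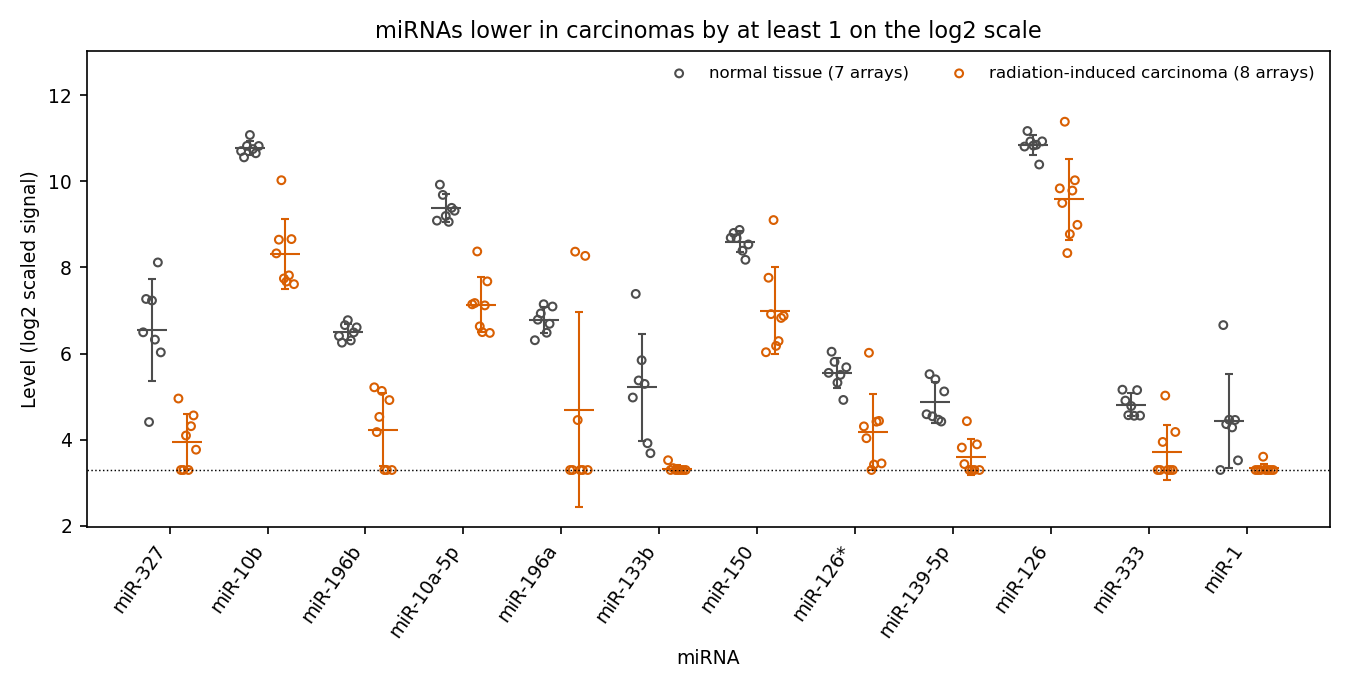
Levels (log2 scaled signal, vertical axis) of the 12 miRNAs that fell by at least 1, in 7 normal tissues (grey) and 8 radiation-induced carcinomas (orange); each circle is 1 array, bars give the mean and SD, and the dotted line is the floor of 3.30. MiR-10b, miR-196b, miR-10a-5p and miR-133b show no overlap, and 2 carcinomas stand above the normal tissues for miR-196a.

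Among the rises, the miR-34 family is known as a direct target of p53, the tumour suppressor activated by DNA damage, and its members slow the cell cycle. Of 3 tested members 2 rose, beside 16.6% of all tested, with a median of 1.63. MiR-34c ran from 5.81 (median 6.39) to 6.94 in carcinomas and from 4.12 (median 4.68) to 5.54 in normal tissue. Every carcinoma lay above every normal tissue, and the difference was 1.68 ± 0.40 (adjusted p = 0.00435), with 1.34 on slide 3 and 1.95 on slide 4. MiR-34b, made from the same transcript, ran from 6.69 (median 7.44) to 7.99 against 5.15 (median 5.65) to 6.49, again without overlap. It rose by 1.63 ± 0.44 (adjusted p = 0.0101), and with slide as a block the difference of 1.43 did not pass (adjusted p = 0.0714). MiR-34a, encoded apart from them, had a difference of 0.86 ± 0.37 that did not pass (adjusted p = 0.0885). Without scaling none of the 3 passed, with a list median of 1.21. In the unscaled table deposited by the authors none passed either (median 1.25).

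MiR-192 and miR-194 are a pair that lie 101 bases apart in RefSeq, and both are best known from gut, liver and kidney epithelium; miR-194 is named in the title of the study for a possible part in proliferation. Both tested members of this family rose. MiR-192 ran from 4.47 (median 4.85) to 4.98 in carcinomas and from the floor (median 3.83) to 4.17 in normal tissue. MiR-194 ran from 3.60 (median 4.55) to 4.85 in carcinomas, where 7 of 8 arrays detected it, and from the floor (median 3.30) to 3.59 in normal tissue, where 4 of 7 did. Neither miRNA overlapped between the groups, though the edges of miR-194 met at 3.60 and 3.59.

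The rise of miR-192 was 1.03 ± 0.18 (adjusted p = 2.82e-04) and that of miR-194 was 1.02 ± 0.23 (adjusted p = 0.00285). On slides 3 and 4 the difference of miR-194 was 1.05 and 1.05. Both miRNAs are dim in both tissues. The raised floor of 4.89 lies close to or above their levels on most arrays, and there the difference of miR-192 was 0.02 (adjusted p = 0.896) and that of miR-194 was 0. Without scaling neither passed (miR-192 0.63, adjusted p = 0.12; miR-194 0.76, adjusted p = 0.0708).

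MiR-135b, which targets the APC tumour suppressor message and is raised in human colon cancer, had the largest rise. It was at the floor in all 7 normal tissues and was detected on none of those arrays. In carcinomas it was detected on 7 of 8, from the floor (median 5.56) to 8.05, with carcinoma 3 at the floor and carcinoma 6 the highest. The mean level of miR-135b was 4.84-fold higher in carcinomas with undetected arrays counted at the floor. This is no strict lower bound, since 1 carcinoma was itself set to the floor. The fitted difference was 2.28 ± 0.51 (limma, adjusted p = 0.00285), with a 95% confidence interval from 1.23 to 3.32. It was 1.27 on slide 3 and 3.95 on slide 4, and 1.05 with the raised floor (adjusted p = 0.0532).

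Tested miRNAs of the clusters of miR-106b and miR-17, which act in the cell cycle and are driven by Myc and E2F factors, had positive differences throughout. In the cluster of miR-106b, miR-93 and miR-25, an intron of the replication gene Mcm7, all 3 rose, with a median of 1.04. MiR-93 ran from 7.99 (median 8.9999) to 9.48 in carcinomas and from 7.06 (median 7.64) to 8.31 in normal tissue. The groups overlapped through carcinoma 3 alone, and the rise was 1.28 ± 0.25 (adjusted p = 9.89e-04). MiR-106b rose by 1.04 ± 0.23 (adjusted p = 0.00287) and miR-25 by 0.90 ± 0.24 (adjusted p = 0.00928). Without carcinoma 3 miR-106b rose by 1.21 and miR-25 by 1.09. Without scaling none of the 3 passed, and the list median was 0.62.

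In the paralogous cluster from miR-17 to miR-92a all 7 tested members had positive differences, with a median of 0.97, and 2 passed. MiR-92a ran from 8.65 (median 11.3) to 11.5 in carcinomas and from 9.47 (median 10.1) to 10.2 in normal tissue. Carcinoma 3 was below every normal tissue while the other 7 were above all of them. The rises of miR-92a (1.03 ± 0.38) and miR-19a (1.097 ± 0.40) both had an adjusted p of 0.0491. MiR-18a (1.17), miR-17-5p (0.97), miR-20a (0.91) and miR-19b (0.81) had adjusted p-values from 0.0516 to 0.0885.

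The calls in this cluster turned on which arrays were fitted. Without carcinoma 3 all 7 members passed, with a median of 1.21. In the fit of the 15 arrays alone, which keeps carcinoma 3, 6 of the 7 passed. With slide as a block none of the 7 did, with a median of 1.19. MiR-92a then had 1.37 (adjusted p = 7.44e-04) without carcinoma 3 and 1.29 (adjusted p = 0.059) with slide as a block. Leaving out any one array other than carcinoma 3 lost both miR-92a and miR-19a. By seed, miR-106b, miR-93, miR-17-5p and miR-20a share AAAGUGC and ran from 0.91 to 1.28, with 2 of 4 risen. MiR-25, miR-92a, miR-32 and miR-363 share AUUGCAC, and 3 of 4 rose, miR-32 by 0.90 ± 0.28 (adjusted p = 0.0212), while miR-363 differed by 0.27 (adjusted p = 0.725). MiR-32 did not pass with slide as a block (0.92, adjusted p = 0.059), with the raised floor, under quantile normalization or with the percentile over all probes, and of the 4 that share AUUGCAC only miR-25 passed with slide as a block (adjusted p = 0.0379).

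MiR-181c and miR-181d, which lie 78 bases apart, rose together, whereas the list of 5 tested miR-181 forms had a median of 0.34 and 2 passed. The family tunes signalling in lymphocytes and is raised in several tumours. MiR-181d ran from 5.73 (median 7.01) to 7.36 in carcinomas and from 4.81 (median 5.57) to 6.16 in normal tissue, with carcinoma 3 alone inside the normal range. It rose by 1.33 ± 0.35 and miR-181c by 1.23 ± 0.32 (both adjusted p = 0.0082), and without carcinoma 3 miR-181d rose by 1.49. Neither passed without scaling.

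MiR-221, which represses the cell cycle inhibitor p27, ran from 8.10 (median 8.50) to 10.4 in carcinomas and from 7.202 (median 7.998) to 8.21 in normal tissue. The groups overlapped at the margin, and all 8 carcinomas lay above the normal mean. It rose by 1.05 ± 0.33 (adjusted p = 0.0225), with 0.82 (adjusted p = 0.127) under quantile normalization and 1.03 (adjusted p = 0.0822) with slide as a block. The call was also lost without carcinoma 6, normal tissue 1 or normal tissue 3. MiR-222, 459 bases away with the same seed, differed by 0.65 ± 0.32 (adjusted p = 0.14).

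MiR-204 and miR-211 share the seed UCCCUUU and lie in introns of the related genes Trpm3 and Trpm1. MiR-211 was detected in all 8 carcinomas, from 3.97 (median 4.91) to 5.56, and in 4 of 7 normal tissues, from the floor (median 3.30) to 3.35. The groups did not overlap, and it rose by 1.52 ± 0.35 (adjusted p = 0.00309), or by 0.20 with the raised floor (adjusted p = 0.599). MiR-204 ran from 9.77 (median 11.4) to 12.2 in carcinomas and from 7.95 (median 8.86) to 10.1 in normal tissue. Its difference of 2.21 ± 0.97 exceeded that of every miRNA that rose except miR-135b, yet it did not pass (adjusted p = 0.0953); in the fit of the 15 arrays alone all 3 forms of this pair passed. The other arm, miR-204*, rose by 0.79 ± 0.28 (adjusted p = 0.0472). It did not pass with slide as a block (0.69, adjusted p = 0.185) and kept its call on leaving out only 3 of the 15 arrays in turn.

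Other rises of at least 1 came from unrelated miRNAs. MiR-674-3p, annotated in rodents, ran from 6.01 (median 6.31) to 6.90 in carcinomas and from 4.65 (median 4.98) to 5.28 in normal tissue, without overlap. It rose by 1.49 ± 0.24 (adjusted p = 1.45e-04), with 1.57 on slide 3 and 1.53 on slide 4. Its other arm, miR-674-5p, rose by 0.58 ± 0.21 (adjusted p = 0.0491), but had -0.13 with the total gene signal in place of the brightest probe and 0.73 with slide as a block (adjusted p = 0.059). MiR-598-3p rose by 1.52 ± 0.37 (adjusted p = 0.00499), and miR-425, within the span of Dalrd3, by 1.05 ± 0.23 (adjusted p = 0.00278). With the raised floor miR-598-3p had 0.39 (adjusted p = 0.152), and without scaling miR-425 had 0.64 and did not pass.

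MiR-210, the miRNA most widely induced by hypoxia through HIF, ran from 5.20 (median 7.59) to 9.27 in carcinomas and from 4.93 (median 6.00) to 6.90 in normal tissue. The groups overlapped, with 7 of 8 carcinomas above the normal mean. It rose by 1.5 ± 0.54 (adjusted p = 0.0484), and the call was lost on leaving out any of 12 arrays and under quantile normalization (1.18, adjusted p = 0.127). With slide as a block the difference was 1.94 (adjusted p = 0.049).

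Several smaller rises also showed no overlap. MiR-361 ran from 7.31 (median 7.39) to 7.75 in carcinomas and from 6.49 (median 6.65) to 6.88 in normal tissue, a rise of 0.78 ± 0.17 (adjusted p = 0.00285). MiR-219-5p, a miRNA of oligodendrocytes, rose by 0.85 ± 0.18 (adjusted p = 0.00193), also without overlap. MiR-98, a let-7 relative, rose by 0.49 ± 0.13 (adjusted p = 0.0101) and miR-128, known from neurons, by 0.46 ± 0.13 (adjusted p = 0.0156). In both cases the carcinomas stood wholly above the normal tissues. Neither miR-98 (0.47, adjusted p = 0.059) nor miR-128 (0.44, adjusted p = 0.0714) passed with slide as a block, and neither passed under quantile normalization or with the percentile over all probes. MiR-361 did not pass under quantile normalization or without scaling, and miR-219-5p did not pass without scaling.

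**Figure D3:**
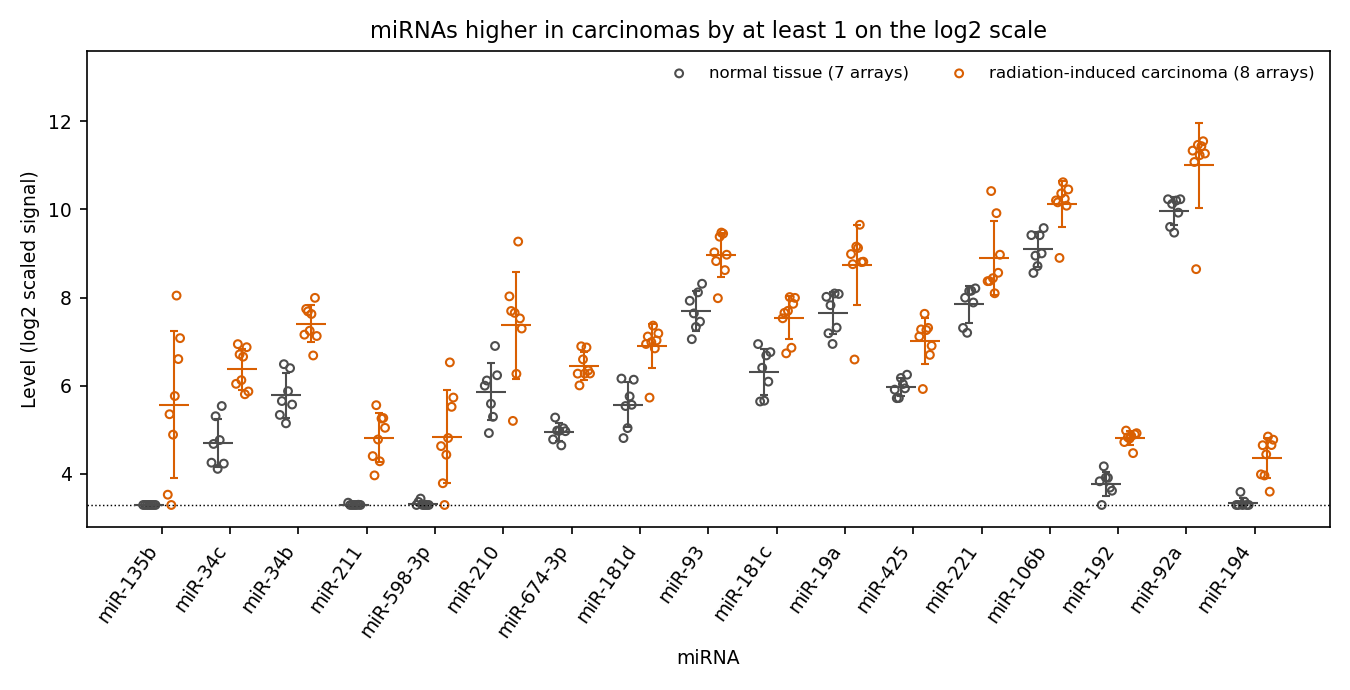
Levels (log2 scaled signal, vertical axis) of the 17 miRNAs that rose by at least 1, in 7 normal tissues (grey) and 8 radiation-induced carcinomas (orange); each circle is 1 array, bars give the mean and SD, and the dotted line is the floor of 3.30. MiR-34c, miR-34b, miR-211, miR-674-3p, miR-192 and miR-194 show no overlap, and 1 low circle, carcinoma 3, falls beneath the other carcinomas for miR-19a and miR-92a.

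The epithelial miRNAs were not called, and their values turned on carcinoma 3. None of the 5 members of the miR-200 family passed, with differences from -0.07 for miR-200c to 0.67 for miR-429 and a median of 0.35. They repress the factors Zeb1 and Zeb2 and mark epithelial cells. The level of miR-200c ran from the floor (median 12.2) to 12.5 in carcinomas and from 9.93 (median 11.5) to 11.8 in normal tissue. Apart from carcinoma 3, each carcinoma exceeded every normal tissue for miR-200c.

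Without carcinoma 3 the difference of miR-200c was 1.04 ± 1.03 and the adjusted p 0.459, because the 23-array fit still held 1 spontaneous carcinoma that also lay at the floor for these miRNAs. Without both of those carcinomas, an alternative chosen after the data were seen, all 5 members passed. The differences were then 1.58 ± 0.22 for miR-429, 1.46 ± 0.23 for miR-200a, 1.42 ± 0.21 for miR-200b, 1.22 ± 0.28 for miR-141 and 1.04 ± 0.26 for miR-200c, with adjusted p-values from 2.55e-05 to 0.00291. Both arrays were left out because they lay at the floor for these same miRNAs, so these p-values are no support for a rise. In the fit without both, 95 miRNAs passed, 67 higher and 28 lower, against 50 with all arrays.

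None of the 3 miRNAs of epithelial lineage passed with all arrays. MiR-203 differed by 1.22, miR-205 by 0.63 and miR-375 by -0.86. MiR-205, a miRNA of basal epithelium, ran from 6.33 (median 10.4) to 11.9 in carcinomas and from 9.22 (median 9.32) to 9.98 in normal tissue. Without both carcinomas at the floor 2 of the 3 passed, both higher. The 3 members of the cluster of miR-183, miR-96 and miR-182 had differences from 0.52 to 1.19 (median 0.77) and none passed. Without carcinoma 3 their median was 1.42 and 1 rose, and without both carcinomas at the floor all 3 did. Carcinoma 3 was itself at the floor for this cluster, miR-203 and miR-375. The fits without it are therefore no support for rises of these miRNAs.

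Of 5 tested miRNAs of smooth muscle and fibroblasts none passed, with a median of -0.89. MiR-199a-3p ran from 8.77 (median 10.2) to 13.5 in carcinomas and from 11.4 (median 11.7) to 12.3 in normal tissue, with the highest value in carcinoma 3. Its difference was -1.37 ± 0.54 (adjusted p = 0.0661), while that of miR-145 was 0.85 ± 0.38 (adjusted p = 0.101). Without carcinoma 3, 3 of the 5 fell and 1 rose, with a median of -1.36.

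**Figure D4:**
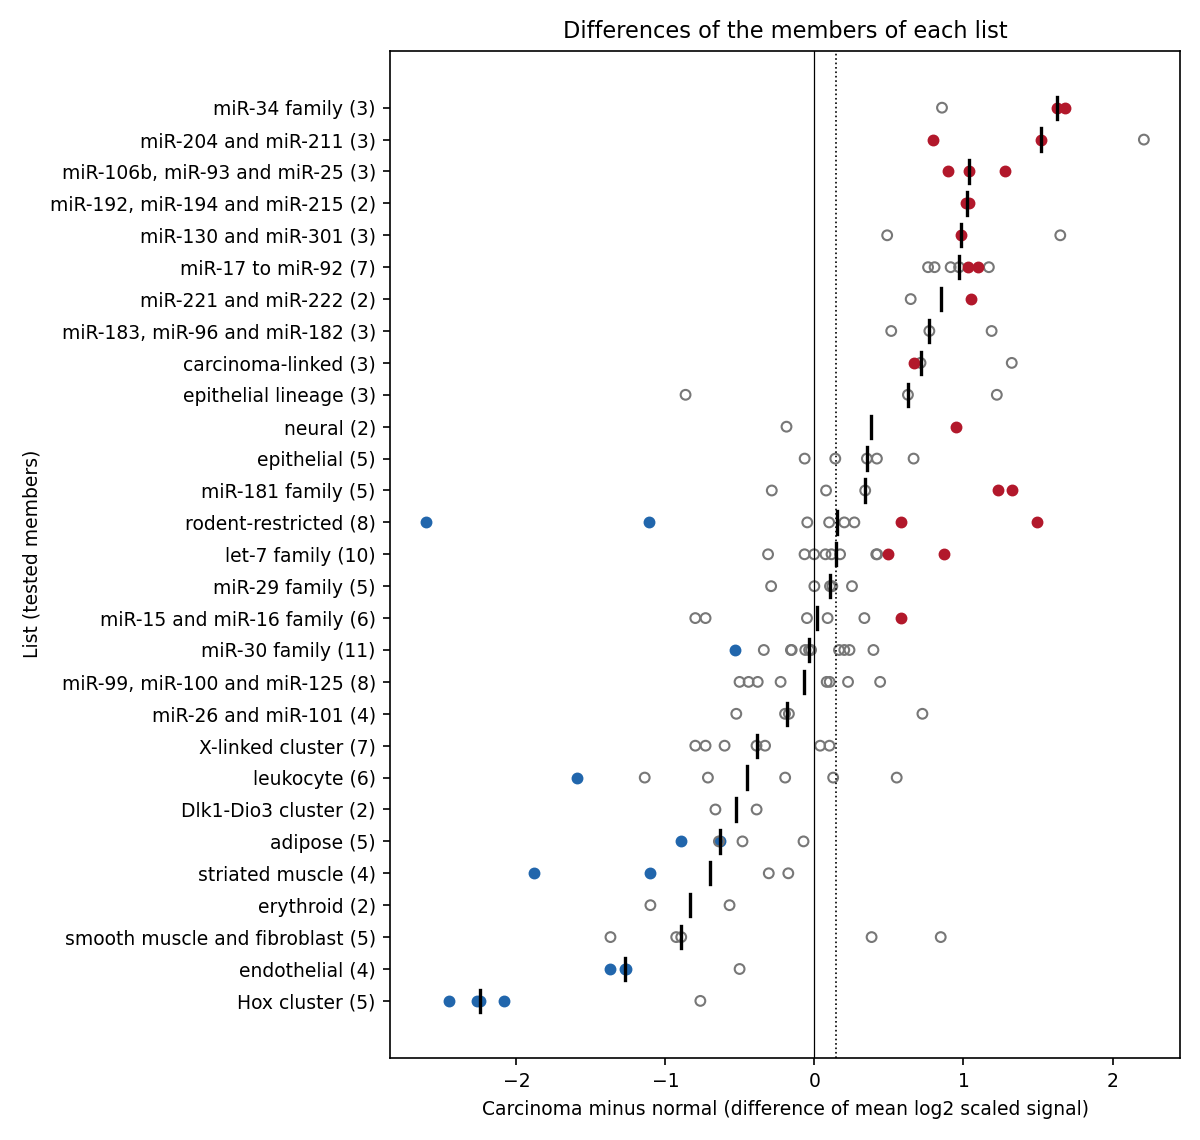
Difference of each tested member (horizontal axis, carcinoma minus normal, log2 scaled signal) for each list of families, clusters and cell type markers with more than 1 tested member; filled circles passed the test (red higher, blue lower), open circles did not, black bars are list medians and the dotted line is the median of all tested miRNAs, 0.14. List medians run from -2.24 for the Hox cluster miRNAs to 1.63 for the miR-34 family.

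Other families fixed as lists are given here beside the shares of all tested miRNAs that rose (16.6%) and fell (8.54%). Of 10 tested let-7 forms 2 rose, with a median of 0.14, which equals that of all tested miRNAs. Of 11 miR-30 forms 1 fell (median -0.04), of 6 forms of the miR-15 and miR-16 family 1 rose (median 0.02), and of 5 miR-29 forms, which target collagen messages, none passed (median 0.10). None of the 8 forms of miR-99, miR-100 and miR-125 passed (median -0.07), nor any of the 7 of the X-linked cluster around miR-322 and miR-503 (median -0.39; without carcinoma 3 a median of -0.63, with 1 lower). Of 45 miRNAs of the imprinted Dlk1-Dio3 cluster on the array only 2 were detected widely enough to be tested, and neither passed.

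Carcinomas varied more than normal tissue did. The SD over carcinomas exceeded that over normal tissues for 163 of 199 miRNAs, with medians of 0.49 and 0.30. The miR-200 family had the widest spread, followed by miR-196a, miR-31 and miR-96. The fit shares 1 estimate of spread per miRNA over all 23 arrays, and the spontaneous carcinomas had a median SD of 0.74. With the 15 arrays fitted alone 76 miRNAs passed, 54 higher and 22 lower, including 48 of the 50.

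**Figure D5:**
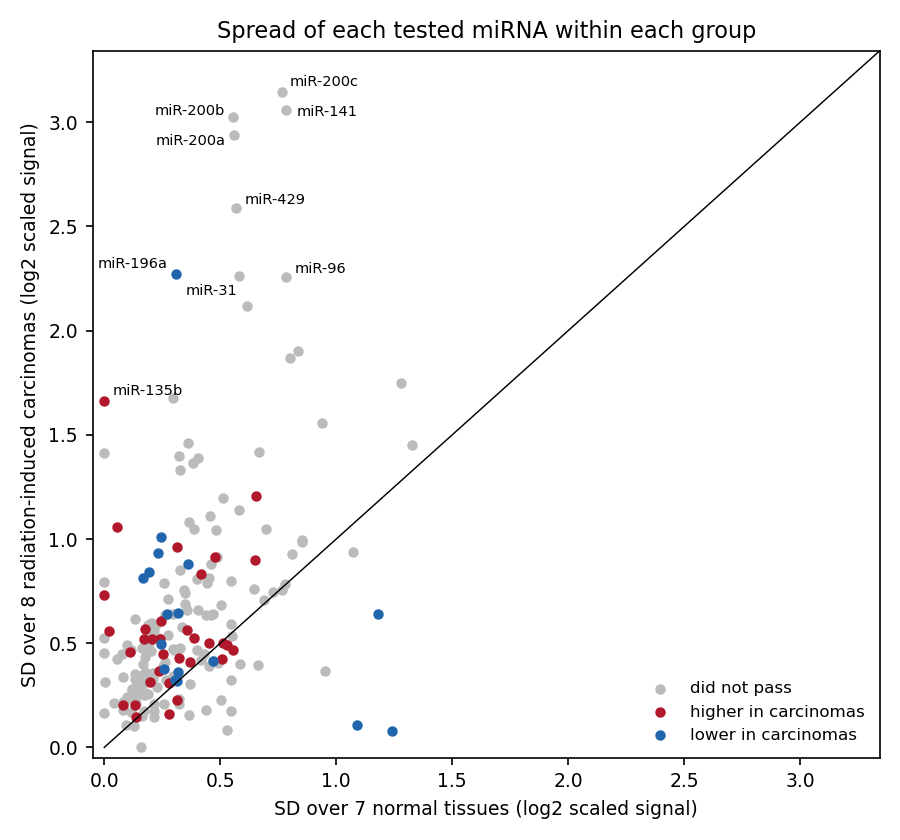
SD of each tested miRNA over 7 normal tissues (horizontal axis) and over 8 radiation-induced carcinomas (vertical axis), both in log2 scaled signal; the line marks equal spread. Most points (163 of 199) lie above the line, with miR-200c highest, and an SD of 0 on the horizontal axis means that all 7 normal tissues were at the floor.

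The spontaneous carcinomas were compared with the same 7 normal arrays, so the values that follow are set side by side and are no independent support for each other. Against normal tissue, 81 of 199 passed in spontaneous carcinomas (40.7%), and 36 of 199 (18.1%) passed between the 2 kinds of carcinoma. The difference of miR-10b was -2.46 in radiation-induced and -2.53 in spontaneous carcinomas, and that of miR-10a-5p was -2.24 and -2.61. MiR-93 rose by 1.28 and 2.07.

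For 8 of the 50 the 2 kinds of carcinoma differed, beside 36 of all 199 tested (18.1%), so the 50 did not stand out in this. MiR-34c, miR-34b, miR-135b, miR-221 and miR-194 were higher in the radiation-induced ones, and miR-333, miR-484 and miR-93 were lower. The difference of radiation-induced minus spontaneous was 1.95 for miR-135b (adjusted p = 0.0182), 1.51 for miR-34b (0.0194), 1.41 for miR-34c (0.0186), 1.11 for miR-221 (0.0194) and 0.65 for miR-194 (0.0422). Against normal tissue the spontaneous carcinomas had 0.33 for miR-135b, 0.11 for miR-34b, 0.27 for miR-34c, -0.06 for miR-221 and 0.37 for miR-194, none past the test. Of 8 spontaneous arrays 1 detected miR-135b, 3 miR-194, 5 miR-34c, 7 miR-34b and 8 miR-221. The values of miR-135b and miR-194 in spontaneous carcinomas thus rest mostly on arrays that did not detect them. The spontaneous arrays were mostly dimmer than the others, and the 2 kinds of carcinoma shared only slide 4, with 3 arrays of each. The parts of brightness and slide in these differences were not tested.

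Neighbouring miRNA genes mostly differed in one direction. Within 10000 bases of each other in RefSeq there were 66 pairs of tested miRNAs, 47 of them with differences of one sign. In the 19 pairs with at least 1 call, 18 agreed in sign, the exception being let-7f (-0.07) beside miR-98 (0.49). The pairs are not independent, since many of these come from the cluster of miR-17 to miR-92a through miR-19a and miR-92a. Arms of one hairpin were also counted apart, as in miR-188 beside each arm of miR-532. How often distant pairs agree was not tested, and 121 of all 199 differences were positive. In 5 pairs both members passed, and each pair in one direction: miR-181c and miR-181d, miR-192 and miR-194, miR-19a and miR-92a, miR-25 and miR-93, and miR-34b and miR-34c. Of 35 pairs of arms from one hairpin, 29 agreed in sign, and in 3 pairs, those of miR-126, miR-532 and miR-674, both arms passed.

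Slides are a possible batch: there were 4, and since a slide was scanned as a whole, scan and slide cannot be told apart. Slide 3 held 5 carcinomas and 2 normal tissues, slide 4 held 3 carcinomas and 1 normal tissue, and the other 4 normal tissues lay on slides without radiation-induced carcinomas. All 50 miRNAs kept their direction on slide 3 alone and on slide 4 alone. This agreement is partly built in, since the 50 were chosen from a fit that includes these arrays. Slides 3 and 4 also hold all radiation-induced carcinomas. On slide 3 none passed (limma, with 28 miRNAs at an unadjusted p under 0.05), and slide 4 has only 1 normal tissue. With slide as a block in the fit of all arrays 28 passed, 17 higher and 11 lower, and 27 of them were among the 50. In the fits that left out 1 array at a time, 32 of the 50 passed every time. MiR-10a-5p, miR-10b, miR-196b, miR-327 and miR-674-3p also passed under every alternative that was run except the single slides.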

How the data were processed

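Per the file headers, Agilent Feature Extraction 9.5.1.1 turned scans into the deposited spot intensity (linear scale), whose processed form has the background subtracted but no scaling across arrays. A deposited table of the authors, used as an alternative, held unscaled total gene signal: 100% of its values above the lowest, 5, matched the scanner files within 1%. Control spots (953 of an array; 7000 were miRNA spots) and outlier spots were left out, and spots averaged over 938 probes. As 35.7% of probe values were detected, the scale of an array was its 75th percentile over 199 probes that all 23 arrays detected; signals were then floored at 9.82 and log2-transformed. Each miRNA took its brightest probe (196 tested miRNAs had several). The 199 miRNAs detected on at least 7 arrays were tested with limma 3.58.1 (R 4.3.3; files read by the data.table package, version 1.17.8), as 3 group means fitted to 23 arrays (22.5 total degrees of freedom) and Benjamini-Hochberg adjustment; errors of differences are SE. The fold given for miR-135b sets the carcinoma mean against, per normal array, the higher of its lowest signal well above background, the probe's own signal and the floor. The step was tested on simulated data.

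Named are miRNAs that passed with a difference of at least 1 and their other arms, up to 4 members of each list with the smallest p, and the 5 brightest in each group; the others named were chosen after their values were seen. The comparison and the lists were chosen with earlier results of these data known. Alternatives covered scaling, background (normexp, offset 50, on the median spot signal, as mean signal is not among the columns used), signal, floor (raised to 29.7), filter, probe rule, arrays fitted, slide, brightness and each array left out. The number of arrays limits the precision. Host genes and distances come from RefSeq GRCr8.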

Additional observations from a re-analysis of the deposited data

Results flagged for a closer look

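In groups of this size chance alone marks about 1 group in 20 as holding a sample far from the rest, so single marks carry little. Most of those found here fell on carcinoma 3. Among epithelial miRNAs it lay at the floor of 3.30 for miR-200a (next lowest carcinoma 11.2), miR-200b (11.6), miR-200c (11.8), miR-141 (11.7), miR-429 (10.2), miR-375 (7.02) and miR-31 (8.13), and at 6.33 for miR-205 (next 9.92).

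Carcinoma 3 was also lowest among carcinomas for miRNAs of the clusters of miR-106b and miR-17: 8.90 for miR-106b, 8.48 for miR-25, 6.60 for miR-19a, 9.32 for miR-19b, 8.47 for miR-20a and 8.65 for miR-92a. The same held for miR-181d, at 5.73. It was highest for miR-199a-3p (13.5), miR-214 (12.1), miR-10b (10.02), miR-132 (7.05) and miR-126* (6.02).

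Other arrays were marked once or a few times. Among carcinomas these were carcinoma 1 for miR-133b (3.52), carcinoma 4 for miR-1 (3.60) and miR-128 (6.39), and carcinoma 6 for miR-193 (8.12). Among normal tissues these were normal tissue 2 for miR-1 (6.66), normal tissue 3 for miR-194 (3.59), normal tissue 1 for miR-211 (3.35) and normal tissue 5 for miR-21* (3.75). The 75th percentile before scaling was highest in carcinoma 2, at 2032.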

How the results depend on the processing

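No paired analysis was possible because only the normal tissues carry replicate numbers, while the carcinomas carry animal codes. Main counts were 50 miRNAs, 33 higher and 17 lower. Leaving out 1 array at a time gave 35 to 70 (higher 21 to 47, lower 12 to 23), the most without carcinoma 3. Fewer passed without scaling (27, with 4 higher), in the authors' deposited table (25, with 3 higher and 22 lower, median of all -0.20), with the raised floor (28, with 19 and 9) and with slide as a block (28, with 17 and 11; the 15 arrays alone with slide as a block, added after the data were seen, gave 16, with 11 and 5). Slide 3 alone and slide 4 alone gave 0. The split moved to 16 higher with the all-probe percentile and 14 higher with quantile normalization, and to 43 higher and 10 lower of 53 with normexp background. More passed with the 15 arrays alone (76, with 54 higher) and, in settings added after the data were seen, without both carcinomas at the floor for miR-200 (95, with 67 and 28) or with the 15 arrays alone without the radiation-induced one (115, with 80 and 35). The fewer arrays of single slides and the wider spread of spontaneous carcinomas are part of these constructions; otherwise the cause was not tested.

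Signs turned mostly for miR-200 members. MiR-141, 0.14 with all arrays, had -0.045 with the all-probe percentile, -0.10 with quantile normalization, -0.31 without scaling, -0.36 in the deposited table, -0.41 with slide as a block, -0.47 with the 15 arrays and slide, -0.86 on slide 3 and -0.36 with brightness as a covariate; leaving out 1 array gave -0.066 to 1.22, the highest without carcinoma 3. MiR-200a had -0.029 without scaling, -0.12 in the deposited table, -0.067 with slide as a block and -0.38 on slide 3. MiR-200b had -0.097, -0.16, -0.18 and -0.56 in these settings and -0.050 with brightness. MiR-200c, -0.07 with all arrays, had 0.20 with normexp, 0.13 with the raised floor, 0.039 with the mean of probes, 0.36 on slide 4 and 1.04 in the 2 added fits without carcinoma 3; leaving out 1 array gave -0.27 to 1.04. On slide 3 miR-429 had -0.22 and miR-205 -0.12, and on slide 4 miR-139-3p had 0.87. MiR-674-5p had -0.13 with the total gene signal and -0.50 in the deposited table, where miR-363 had -0.28.

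Signal over background limits the dim miRNAs. The raised floor of 4.89 on the log2 scale, or 29.7 in scaled signal, is the detection limit of 1 spontaneous carcinoma array, whereas the highest limit on a radiation-induced or normal array was 14.1. MiR-192, miR-194 and miR-211 lie near or below the raised floor on many arrays, and their differences shrink there.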

Other observations

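Detection split some miRNAs that the differences do not show. Over the 350 miRNAs of the array, 13 were detected on at least 1 carcinoma and no normal array, and 12 on at least 1 normal and no carcinoma array. MiR-207 was detected on 8 of 8 carcinoma arrays and 1 of 7 normal arrays, with a difference of 1.01 ± 0.61 that did not pass (limma, adjusted p = 0.238). MiR-760-3p was detected on 5 of 7 normal and 0 of 8 carcinoma arrays, and miR-23a* on 5 of 7 and 1 of 8. Both were detected too rarely to be tested. These miRNAs were chosen after their values were seen.

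Several rises have not been described so far. MiR-484 rose by 0.89 ± 0.27 (adjusted p = 0.0225), miR-345-5p by 0.71 ± 0.20 (0.0137), miR-15b by 0.58 ± 0.21 (0.0491) and miR-301a by 0.98 ± 0.31 (0.0274). MiR-130b, a seed relative of miR-301a, had a larger difference that did not pass (1.65 ± 0.72, adjusted p = 0.0915), and miR-132, a miRNA induced by neuronal activity, rose by 0.95 ± 0.34 (0.0491). With slide as a block miR-345-5p passed (adjusted p = 0.0231), while miR-484 (0.059), miR-15b (0.096), miR-301a (0.0662) and miR-132 (0.125) did not. Neither miR-345-5p nor any of these others passed without scaling, under quantile normalization or with the percentile over all probes. MiR-15b and miR-132 each kept their call on leaving out only 3 of the 15 arrays in turn, and miR-132 had 0.66 (adjusted p = 0.0514) without carcinoma 3. MiR-203 differed by 1.22 (0.24) and miR-375 by -0.86 (0.541).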
